A study of Mus musculus with 6 samples.

Results

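Long non-coding RNAs (lncRNAs) were examined in CD4+CD8+ double-positive thymocytes, where 102 of the 5710 genes annotated as lncRNA were abundant. The group was chosen by abundance: a lncRNA entered when its mean over the 6 libraries reached 20 CPM, a count divided by the library total and multiplied by 1000000. The whole table held 29626 genes. Gas5, Malat1, Neat1 and the Snhg small nucleolar RNA host genes, 5 of which reached the level, were left out by name. The level of expression chose these genes, so it is given as a description. Gm20098 and Gm56638, at means of 20.1 and 20.6 CPM, lay just inside the limit, and Mypopos and AU020206, at 19.9 and 19.7 CPM, lay just outside it.

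The cells were sorted from the thymus of mice 8 weeks old. The 3 control mice carried a floxed Kansl1 gene (Kansl1fl/fl) and no Cre, although their genotype field reads WT, and were littermates of the other group. The 3 KANSL1-deficient mice carried the same floxed gene with CD4-Cre, a Cre recombinase driven by the Cd4 gene, which is active in thymocytes from about the double-positive stage. Both groups therefore share the floxed alleles, and effects of Cre and of Kansl1 loss cannot be told apart. KANSL1 is a scaffold of the NSL complex, in which KAT8 acetylates histones, and the comparison addressed which transcripts differ between the genotypes.

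LncRNAs are transcripts of considerable length with no long conserved reading frame. Some act on the gene beside them while they are being made, some bind proteins or microRNAs, and some are the precursors from which microRNAs are cut. In developing T cells the best known of them are microRNA hosts, since microRNAs such as miR-181a tune the signalling of the T cell receptor.

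The libraries held 19361968 to 22459830 counts, and the abundant lncRNAs together took 0.508% to 0.623% of them. Every library held at least 220 counts of each of the 102 genes. Kansl1 itself was at 214, 188 and 230 CPM in control and 145, 168 and 188 CPM in KANSL1-deficient libraries, with a log2 fold change of -0.33 ± 0.14 (SE; adjusted p = 0.171, quasi-likelihood test of edgeR, Benjamini-Hochberg adjusted), and whole-gene counts cannot separate a deleted exon. Summed double-positive markers were at 13601 to 14163 CPM in control and 16094 to 17853 CPM in KANSL1-deficient libraries, and 3 of 10 rose, Rag2 and Dntt among them. Of the markers of other cells, Zbtb7b, Nkg7 and Foxn1 had at most 3 counts in any library, Adgre1 and Itgax had 6 and 8 counts over all 6 libraries, and Ighm rose. B cell markers summed to 290 to 405 and 492 to 560 CPM, and CD4 single-positive markers to 243 to 297 and 405 to 570 CPM. Double-negative thymocyte markers summed to 52.7 to 63.3 and 67.5 to 83.1 CPM, and those of macrophages, red cells and thymic epithelium to at most 15.3 CPM in any library. The part of these shifts in the results below was not tested.

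Control replicate 1 stood apart in these genes. It was the highest of the 6 libraries for 35 of the 102 lncRNAs, whereas it was the highest for 13.0% of the 6532 other genes of at least 20 CPM. The median lncRNA was 0.26 above the mean of the other 2 control libraries on the log2 scale, against -0.06 for those other genes. The excess was present in 72 of the 102 lncRNAs, in 22 of 26 with a single exon and in 50 of 76 that are spliced. Gm16121, Gm16150 and Gm38115 were above by more than 1 on the log2 scale. Results are therefore also given without control replicate 1. Control replicate 3 lay low in these genes. It was the lowest library for 36 of the 102 lncRNAs, beside 19.2% of the other genes. It was the highest for 3, beside 16.6%. As 1 of the other 2 controls, it enters the mean against which the excess of control replicate 1 was measured.

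KANSL1-deficient thymocytes held more of 11 abundant lncRNAs and less of 1, Gm16122, after scaling of the libraries by the trimmed mean of M-values (TMM). The risers included Oip5os1, better known as Cyrano, Gm4258, which holds the genes of miR-181a and miR-181b, and D17H6S56E-5, whose change was the largest of the 102. The calls rest on the edgeR quasi-likelihood test at a Benjamini-Hochberg adjusted p of 0.05 over 15353 tested genes. The 12 called lncRNAs were 11.8% of the 102, beside 6.76% of all tested genes and 10.5% of the 6399 protein-coding genes of at least 20 CPM. The 11 risers were 10.8%, beside 3.85% of all tested genes and 6.55% of those protein-coding genes, and the 1 faller was 0.98%, beside 2.91% and 3.91%. The share called was thus close to that of protein-coding genes at or above the same limit. In bulk RNA, a lower level per cell cannot be told apart from fewer cells that hold the transcript.

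Not every member could have fallen or risen freely. Of the 11 risers, 5 (A930002I21Rik, Gm34006, E430002N23Rik, Gm43581 and AI506816) had a control mean below 20 CPM and entered the group through the KANSL1-deficient libraries, and Gm16122 entered through the controls. Among the 87 lncRNAs at 20 CPM or above in both groups, 6 rose and 0 fell (edgeR). Shares called higher were 3.85% of all tested genes and 6.55% of the 6399 protein-coding genes of at least 20 CPM. Called lower were 2.91% and 3.91%. Those protein-coding genes were chosen by their mean over all 6 libraries, not by both groups. The median log2 fold change of the 102 was 0.14, with 66 above 0 and 36 below. It was -0.02 over all tested genes and 0.05 over the abundant protein-coding genes. The 1659 tested lncRNAs below 20 CPM had a median of -0.09, and 2.05% of them were called (1.27% higher and 0.784% lower). Scaling by library totals moved the median of all genes to -0.17. With that scaling 8.62% of all tested genes were called. It gave 9 abundant lncRNAs higher (8.82%, beside 2.39% of all tested genes) and 4 lower (3.92%, beside 6.23%), and their median was -0.014. Leaving out control replicate 1 gave 10 higher, among them 8 of the 11, a median of 0.22 and 1 lower, which was Trmt61b and not Gm16122. The counts fell to 6 higher and 0 lower without KANSL1-deficient replicate 2 or 3. They were 7 higher without control replicate 2 (0 lower), control replicate 3 (2 lower) or KANSL1-deficient replicate 1 (0 lower). The share of all tested genes called was not worked out with a library left out.

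**Figure D1:**
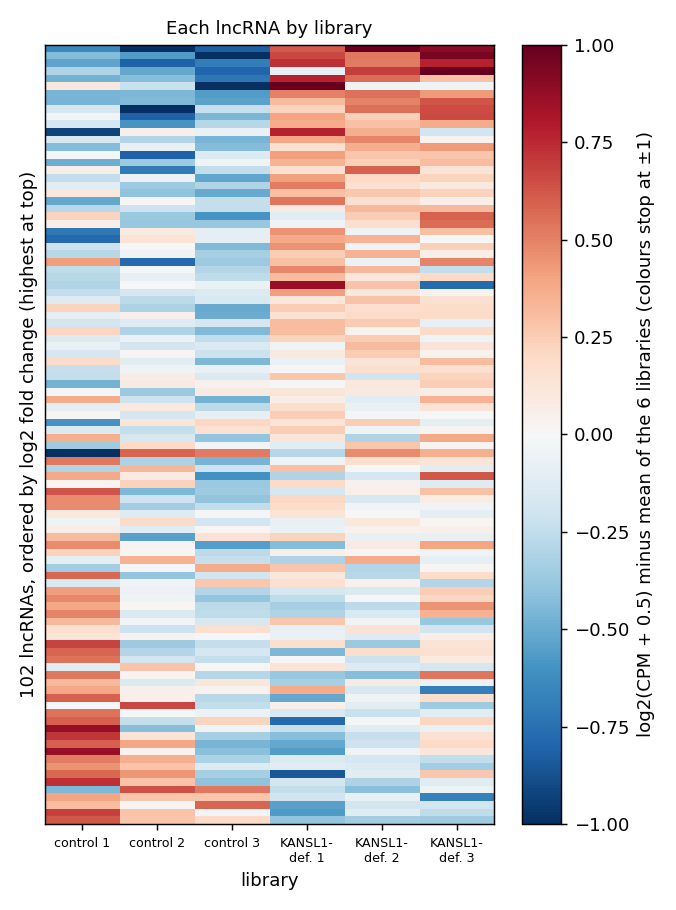
Each row is 1 of the 102 abundant lncRNAs, ordered by its log2 fold change, and each column 1 library; colour is log2(CPM + 0.5) minus the mean of the 6 libraries. Rows at the top are red in the KANSL1-deficient columns, and the lower rows are red mainly in control replicate 1, which was the highest library for 35 of the 102.

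The hosts of microRNAs are shown first, because their processed products are the best understood of these transcripts. Each mature microRNA below lies inside the host on the same strand in GRCm38.p6 (sequences from RefSeq, 5′ to 3′), and capitals mark the seed, bases 2 to 8, which pairs with target messenger RNAs.
miR-181a-5p (Gm4258): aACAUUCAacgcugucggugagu
miR-181b-5p (Gm4258): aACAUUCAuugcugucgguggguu
miR-15a-5p (Dleu2): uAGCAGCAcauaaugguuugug
miR-16-5p (Dleu2): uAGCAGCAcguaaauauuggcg
miR-142a-3p (Mir142hg): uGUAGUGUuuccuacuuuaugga
miR-142a-5p (Mir142hg): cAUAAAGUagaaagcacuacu
miR-22-3p (Mir22hg): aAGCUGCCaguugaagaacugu
The pair in Gm4258 shares the seed ACAUUCA and the pair in Dleu2 shares AGCAGCA, while the microRNAs from the other arms of these 4 precursors, which are not printed, have other seeds. The libraries were made from polyadenylated RNA and read the host transcripts, not the mature microRNAs.

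Of the 4 hosts whose microRNAs are printed and 2610307P16Rik, which holds miR-6368, Gm4258 alone passed the threshold (edgeR). It spans GRCm39 chromosome 1, 137826327 to 137937516, on the plus strand (ENSMUSG00000098243). Its level was 19.9, 20.2 and 18.9 CPM in control and 34.6, 39.2 and 43.1 CPM in KANSL1-deficient libraries. The control libraries were close together and all KANSL1-deficient libraries lay above them. The log2 fold change was 0.99 ± 0.18 (SE; adjusted p = 0.00872, quasi-likelihood test of edgeR, Benjamini-Hochberg adjusted), and it was called with each library left out in turn. Its nearest protein-coding gene is Ptprc, which encodes the phosphatase CD45 and had a log2 fold change of 0.41 (adjusted p = 0.113, edgeR).

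Dleu2, whose microRNAs of the miR-15 family restrain cell cycle genes, stood at 18.98, 17.3 and 15.2 CPM in control and 27.9, 30.0 and 21.8 CPM in KANSL1-deficient libraries. The groups did not overlap, but the log2 fold change of 0.63 ± 0.20 (SE) missed the threshold (adjusted p = 0.0846, edgeR). DESeq2 called it. Mir22hg was at 40.7, 43.1 and 44.2 against 64.9, 52.2 and 49.6 CPM, a log2 fold change of 0.38 (95% interval 0.03 to 0.73; adjusted p = 0.184, edgeR). Mir142hg, host of a microRNA made mainly in blood cells, overlapped between the groups, at 159, 129 and 101 against 132, 152 and 173 CPM. Its log2 fold change was 0.23 (95% interval -0.14 to 0.60), and 0.39 without control replicate 1. 2610307P16Rik, a long gene near Sox4, had a log2 fold change of 0.41 ± 0.12 (SE; adjusted p = 0.0670, edgeR), with 139, 159 and 142 CPM in control and 209, 182 and 193 CPM in KANSL1-deficient libraries. The difference between hosts was not tested.

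Oip5os1 is the mouse form of Cyrano, a conserved lncRNA that directs the breakdown of miR-7. It lies on GRCm39 chromosome 2, 119424757 to 119437983, plus strand (ENSMUSG00000085438). Its level was 141, 147 and 144 CPM in control and 180, 213 and 213 CPM in KANSL1-deficient libraries. The lowest KANSL1-deficient library lay above the highest control. Mean levels were thus 144 ± 3.16 CPM and 202 ± 19.03 CPM (SD, n = 3 each), and the log2 fold change was 0.49 ± 0.12 (SE; adjusted p = 0.0357, edgeR). The call was lost with any 1 library left out (adjusted p = 0.0660 to 0.145) and with library totals (0.34; adjusted p = 0.114, edgeR), so it stood close to the threshold.

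Beside Oip5os1, Nusap1 rose by more than the lncRNA did. Nusap1, a spindle protein gene whose start lies 24022 bases away, went from 28.6, 13.4 and 13.7 to 96.2, 114 and 100 CPM, a log2 fold change of 2.48 (adjusted p = 0.00287, edgeR). Oip5, the centromere gene that gives Oip5os1 its name, was at or below 2.25 CPM in every library (log2 fold change 1.68; adjusted p = 0.149, edgeR).

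Norad, a lncRNA of a single exon that is known for a part in genome stability, had nearly the same level in both groups. It stood at 185, 163 and 179 CPM in control and 169, 183 and 183 CPM in KANSL1-deficient libraries. The groups overlapped fully. The log2 fold change was 0.02 with a 95% interval of -0.24 to 0.28, and its sign changed with the scaling (-0.13 with library totals).

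Chaserr was among the 10 lncRNAs with the most counts and is known to hold down its neighbour Chd2, a chromatin remodeller gene. It was at 220, 260 and 211 CPM in control and 316, 340 and 278 CPM in KANSL1-deficient libraries, without overlap. The log2 fold change of 0.43 ± 0.13 (SE) missed the threshold (adjusted p = 0.0671, edgeR), and DESeq2 called it. Chd2 was at 548, 497 and 390 against 453, 356 and 430 CPM, with a log2 fold change of -0.21 (adjusted p = 0.442, edgeR) and overlapping groups. The sources used here do not say whether counting took account of strand, and Chaserr partly overlaps both Chd2 and Gm44686, another abundant lncRNA that runs the other way and had a log2 fold change of 0.10.

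Nron, a lncRNA that holds the NFAT transcription factors in the cytoplasm, showed no detectable difference, with a log2 fold change of -0.06 (95% interval -0.48 to 0.35). Its 3 control libraries, at 140, 101 and 85.7 CPM, spread over a wider range than the KANSL1-deficient ones, at 93.5, 95.1 and 124 CPM. The sign of its log2 fold change turned without control replicate 1 (0.15).

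The imprinted lncRNAs Kcnq1ot1 and Airn are both transcribed from the paternal allele and silence neighbouring genes in many tissues. Kcnq1ot1 was at 239, 164 and 130 CPM in control and 111, 154 and 179 CPM in KANSL1-deficient libraries. The groups overlapped, and the interval of its log2 fold change of -0.26 ran from -0.74 to 0.22. Without control replicate 1 the estimate was -0.0027, and without KANSL1-deficient replicate 1 it was -0.092. Airn was at 51.2, 28.5 and 25.5 against 34.5, 39.7 and 38.8 CPM, a log2 fold change of 0.10 (95% interval -0.43 to 0.64) that turned to -0.05 with library totals. Control replicate 1 was the highest library for both. Igf2r, which Airn overlaps on the opposite strand, had a log2 fold change of 0.40 (adjusted p = 0.234, edgeR). Kcnq1 and Cdkn1c were read at under 1 CPM in every library. Dleu2 and the lncRNAs listed for X inactivation, imprinting, T cells and p53 came to 21 in the table. Of these 21, 6 were abundant and none of the 6 passed the threshold (edgeR), beside 6.76% of all tested genes. The most abundant of the others were Ftx at 15.7 CPM and Morrbid at 14.7 CPM. Xist had 5 counts over all 6 libraries together, and the Y-linked Ddx3y was at 287 to 331 CPM in each of them.

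D17H6S56E-5 rose most of all. It lies in the major histocompatibility region on GRCm39 chromosome 17, 35215654 to 35219393, minus strand (ENSMUSG00000120992), and starts 570 bases from Vars, the valyl-tRNA synthetase gene, which runs the other way. Its level was 33.7, 24.2 and 29.9 CPM in control and 81.5, 113 and 99.2 CPM in KANSL1-deficient libraries. Every KANSL1-deficient library held more than 2 times the level of the highest control. The log2 fold change was 1.74 ± 0.18 (SE), a 3.34-fold rise (adjusted p = 0.00256, edgeR), and the call held with each library left out in turn. Vars went from 19.4 ± 0.776 to 29.4 ± 6.85 CPM (SD, n = 3 each), a log2 fold change of 0.60 that missed the threshold (adjusted p = 0.107, edgeR).

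The start regions of D17H6S56E-5 and Oip5os1 are shown because these are a divergent riser beside a gene start and a riser that lies apart from genes. Each run covers 250 bases before to 50 bases after the start on the gene's own strand, from RefSeq in GRCm38.p6, and lies at chr17:35000697-35000996 (minus strand) and chr2:119594046-119594345 (plus strand).
D17H6S56E-5: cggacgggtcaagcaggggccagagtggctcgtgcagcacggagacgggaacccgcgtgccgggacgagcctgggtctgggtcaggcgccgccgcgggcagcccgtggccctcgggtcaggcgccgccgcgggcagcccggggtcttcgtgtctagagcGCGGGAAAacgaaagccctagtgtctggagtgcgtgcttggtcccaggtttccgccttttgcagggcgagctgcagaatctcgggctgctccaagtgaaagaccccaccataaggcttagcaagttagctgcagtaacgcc
Oip5os1: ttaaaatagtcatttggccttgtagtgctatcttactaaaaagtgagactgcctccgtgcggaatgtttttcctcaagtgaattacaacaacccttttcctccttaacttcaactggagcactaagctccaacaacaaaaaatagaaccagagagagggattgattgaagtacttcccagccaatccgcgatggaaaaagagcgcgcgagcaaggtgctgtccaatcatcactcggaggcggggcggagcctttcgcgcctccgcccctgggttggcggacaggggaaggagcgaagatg
The capitals mark a match to an E2F motif, searched on both strands as TTTCCCGC or TTTGGCGC, which 1.56% of 32851 promoters of the same length hold (514). Neither window held the ETS motif CCGGAAGT or the YY1 motif AAGATGGC on either strand, which 3.89% and 2.75% of promoters hold. Among the 47 abundant lncRNAs with a RefSeq promoter, E2F matches were found in 2. These motifs do not overlap each other, and a match describes the letters without showing binding.

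The other risers with no protein-coding gene overlapping them included 5 besides Gm4258 and Oip5os1. A930002I21Rik (ENSMUSG00000050179), on GRCm39 chromosome 3, 106998192 to 107005801, plus strand, lies near the potassium channel gene Kcna2. It went from 16.5, 13.4 and 14.7 to 40.1, 34.6 and 41.2 CPM. Its log2 fold change was 1.38 ± 0.19 (SE; adjusted p = 0.00388, edgeR), and Kcna2 stayed below 10 CPM in every library. BC028471 (ENSMUSG00000107271), on chromosome 5, 149291101 to 149317061, plus strand, had tight groups, with 35.0, 35.4 and 32.8 CPM in control and 69.3, 71.3 and 65.4 CPM in KANSL1-deficient libraries. Its log2 fold change was 1.00 ± 0.15 (SE; adjusted p = 0.00458, edgeR). Both were called with each library left out in turn.

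E430002N23Rik (ENSMUSG00000117380), on chromosome 18, 15441915 to 15445756, minus strand, went from 16.8, 17.3 and 14.0 to 40.3, 34.7 and 28.8 CPM. This is a log2 fold change of 1.11 ± 0.20 (SE; adjusted p = 0.00914, edgeR), and the call was lost without KANSL1-deficient replicate 1, its highest library. Gm28875 (ENSMUSG00000100975) is a gene of a single exon on chromosome 12, 104891760 to 104892948, minus strand. It was at 93.3, 69.0 and 85.3 CPM in control and 135, 128 and 135 CPM in KANSL1-deficient libraries, a log2 fold change of 0.68 ± 0.14 (SE; adjusted p = 0.0176, edgeR). Its call was lost without control replicate 2 or any 1 of the KANSL1-deficient libraries. Gm28875 lies on the same chromosome next to the end of Syne3, which encodes a nuclear envelope protein and rose from 12.3 ± 3.36 to 26.6 ± 2.17 CPM (SD, n = 3 each; log2 fold change 1.11, adjusted p = 0.0169, edgeR). AI506816 (ENSMUSG00000105987), on chromosome 5, 23903294 to 23917684, minus strand, was at 19.3, 10.5 and 18.4 against 25.4, 32.1 and 34.4 CPM. It had the largest adjusted p of the risers, with a log2 fold change of 0.93 ± 0.25 (SE; adjusted p = 0.0455, edgeR), and its call was lost with any 1 library left out and with library totals (0.78; adjusted p = 0.0849).

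Dgkeos had the most counts of all 102 lncRNAs. It runs opposite to Dgke, a diacylglycerol kinase gene, and overlaps its start on GRCm39 chromosome 11, 88955555 to 88959924, plus strand (ENSMUSG00000063109). It was at 267, 342 and 266 CPM in control and 402, 464 and 484 CPM in KANSL1-deficient libraries. The groups did not overlap, and control replicate 2 was the highest control. Its log2 fold change was 0.63 ± 0.14 (SE; adjusted p = 0.0204, edgeR). The call was lost without control replicate 1 or 3 or KANSL1-deficient replicate 2 or 3. It was also lost with each library's trend with abundance removed, where the log2 fold change was 0.40 (adjusted p = 0.115, edgeR). A block for replicate number (adjusted p = 0.0550, edgeR) lost it as well. So did log2 of FPKM plus 1 or 0.1 (adjusted p = 0.0740 and 0.0769, limma). Dgke had a log2 fold change of 0.35 (adjusted p = 0.116, edgeR), at 317, 296 and 317 against 412, 440 and 337 CPM.

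Gm34006 lies opposite to Scml4, a Polycomb-related gene, on chromosome 10, 42737378 to 42740695, minus strand (ENSMUSG00000111293). It rose from 19.5, 17.8 and 11.6 to 42.4, 38.4 and 51.7 CPM. Its log2 fold change was 1.44 ± 0.23 (SE; adjusted p = 0.00566, edgeR), and the call held with each library left out in turn. Scml4 was at 45.5, 40.6 and 32.7 against 79.0, 56.1 and 45.3 CPM, with 1 KANSL1-deficient library just below the highest control. Its log2 fold change was 0.60 (adjusted p = 0.112, edgeR).

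Gm43581 is a gene of a single exon that lies within Slc16a1 on the same strand (ENSMUSG00000105199; chromosome 3, 104550310 to 104553173, plus strand). Slc16a1 encodes a lactate transporter. Gm43581 was at 18.1, 15.5 and 12.7 CPM in control and 21.1, 36.5 and 45.1 CPM in KANSL1-deficient libraries, the widest spread relative to the mean among the risers. It had a log2 fold change of 1.15 ± 0.27 (SE; adjusted p = 0.0275, edgeR), and the call was lost without control replicate 2 or 3 or KANSL1-deficient replicate 2 or 3. Slc16a1 rose as well (0.77; adjusted p = 0.0234, edgeR), from 142, 115 and 178 to 261, 276 and 203 CPM. The highest library of the lncRNA, KANSL1-deficient replicate 3, was the lowest of its group for Slc16a1. Reads from unspliced Slc16a1 RNA and from Gm43581 cannot be told apart in these counts.

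Gm16122 was the single lncRNA that fell. It lies opposite to Mad1l1, a spindle checkpoint gene, on chromosome 5, 140059860 to 140071267, plus strand (ENSMUSG00000085673). It was at 34.4, 27.0 and 25.5 CPM in control and at 16.8, 17.4 and 17.2 CPM in KANSL1-deficient libraries, which lay close together. This gave a log2 fold change of -0.76 ± 0.20 (SE; adjusted p = 0.0389, edgeR), and the call was lost without any 1 library other than control replicate 3. Gm16120 and Gm16121, also opposite to Mad1l1, had log2 fold changes of -0.39 and -0.38 that did not pass the threshold (adjusted p = 0.444 and 0.477, edgeR). Control replicate 1 was the highest library for all 3 of them, at 60.8 CPM for Gm16121 against 24.4 and 32.2 CPM in the other controls. Mad1l1 itself was higher by 0.15 (adjusted p = 0.562, edgeR).

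**Figure D2:**
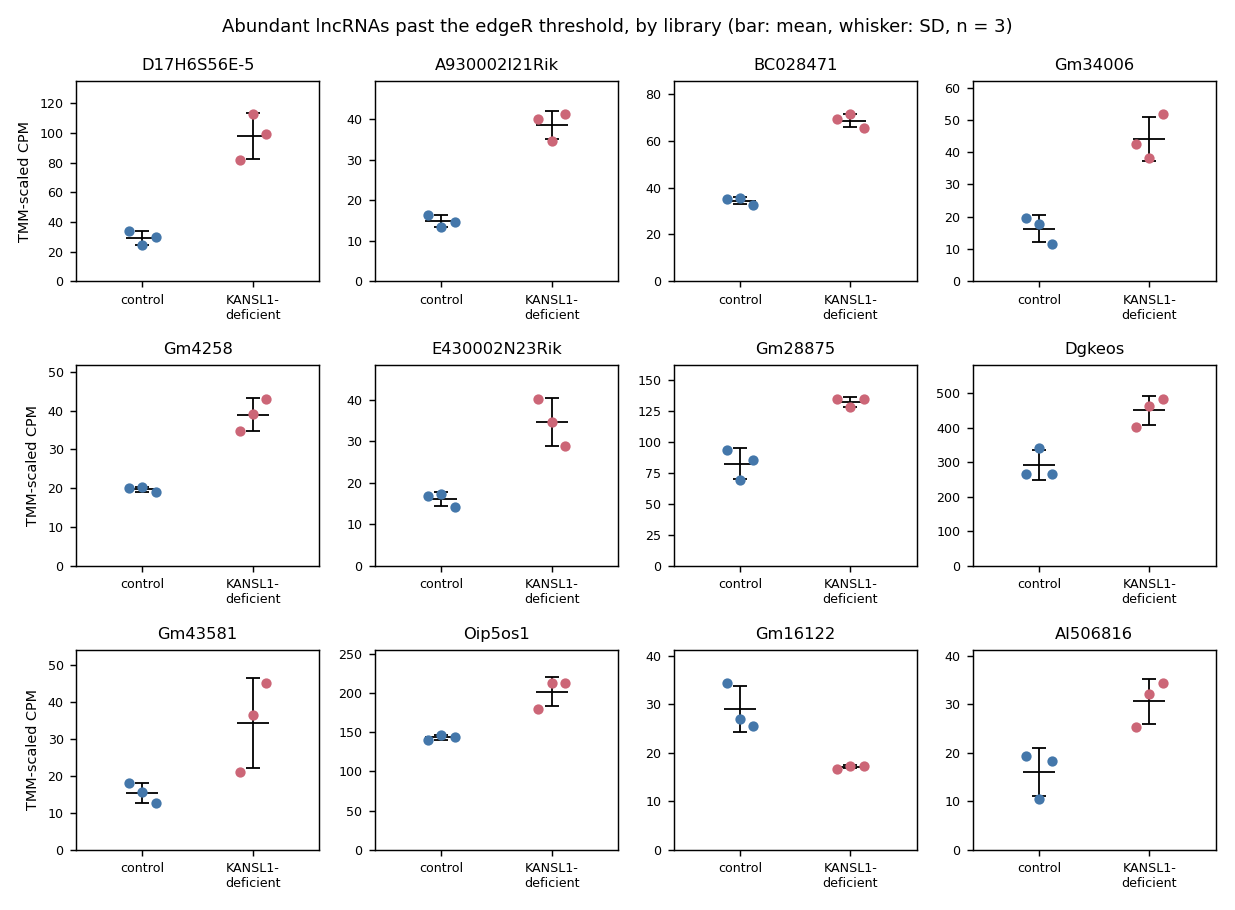
TMM-scaled CPM of the 12 called lncRNAs in the 3 control (blue) and 3 KANSL1-deficient (red) libraries, with the mean as a bar and the SD as whiskers; each vertical axis starts at 0. The groups do not overlap in any panel, Gm16122 is the single panel with blue above red, and the red points of Gm43581 run from 21.1 to 45.1 CPM.

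CPM values favour long transcripts, so levels of different lncRNAs were compared as FPKM, which divides by length. The mean FPKM of the 102 ran from 1.63 to 176, with a median of 13.1. Gm15340 (176 FPKM) and Dgkeos (172 FPKM) were the highest per length, followed by Gm5914 (95.7 FPKM), Gm56876 (90.3 FPKM) and Gm28875 (89.5 FPKM). Kcnq1ot1, which spans 118725 bases and is counted over 93651 of them, was at 1.76 FPKM although it had more counts than most, and Dleu2 was the lowest at 1.63 FPKM. Gm15340 did not differ between the groups in FPKM beyond its spread, with 122, 196 and 211 FPKM in control and 177, 195 and 157 FPKM in KANSL1-deficient libraries. Dgkeos was at 134, 166 and 132 FPKM against 176, 206 and 220 FPKM. The order of these 2 at the top is not resolved, since their ranges overlap.

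Several lncRNAs that missed the threshold still had large estimates. Gm43305 had a log2 fold change of 1.00 ± 0.41 (SE; adjusted p = 0.172, edgeR), but it rested on KANSL1-deficient replicate 1, at 86.5 CPM against 30.6 and 30.4 CPM in the others of its group. Without that library the log2 fold change was 0.32. Gm39556, near Ly6e, was at 19.995, 11.4 and 14.7 against 26.9, 24.1 and 32.5 CPM (0.86 ± 0.24, SE; adjusted p = 0.0522, edgeR). Gm26740 was lower, at 76.3, 57.8 and 46.2 against 31.7, 43.4 and 39.6 CPM (-0.65 ± 0.20, SE; adjusted p = 0.0753, edgeR). All 12 called lncRNAs and 23 others had groups that did not overlap, 35 in all or 34.3%, beside 28.5% of all tested genes. In 30 of the 35 the KANSL1-deficient libraries were the higher ones (29.4% of the 102, beside 14.6% of all tested genes). Of the 102, 9 reached 20 CPM only by the KANSL1-deficient mean and 6 only by the control mean. The choice of members thus bears on these shares. Shares without overlap were not worked out for the other genes of at least 20 CPM. An unadjusted p under 0.05 was reached by 30 of the 102 (29.4%, beside 22.6% of all tested genes).

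**Figure D3:**
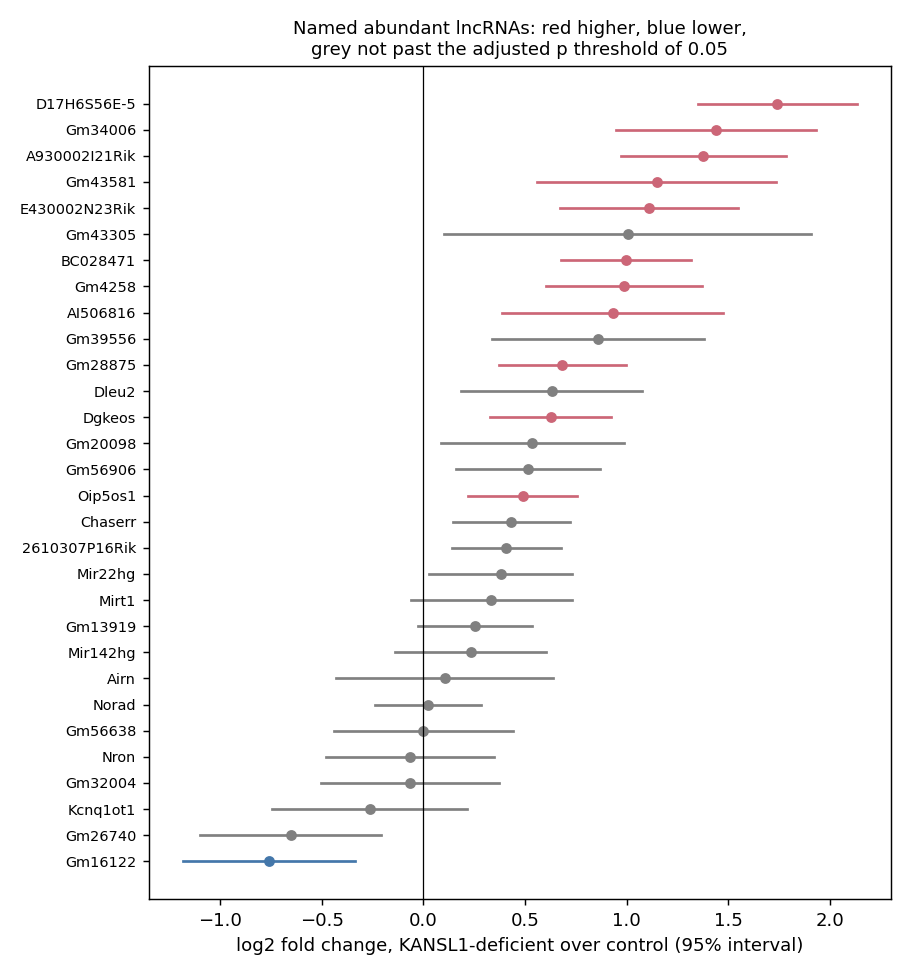
Log2 fold change of the 30 named lncRNAs (KANSL1-deficient over control) with 95% intervals from edgeR; red and blue mark those called higher and lower, grey those that were not. D17H6S56E-5 is highest at 1.74, Gm16122 is lowest at -0.76, and the interval of Norad runs from -0.24 to 0.28.

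Positions relative to protein-coding genes varied. Of the 102 lncRNAs, 43 overlapped a protein-coding gene on the opposite strand, 15 overlapped one on the same strand, 8 started within 1000 bases of a gene running the other way without overlap, and 36 lay apart. Rises were counted for 7 of the 36 that lay apart, 2 of 43 with an antisense overlap, 1 of 8 divergent ones and 1 of 15 on the same strand. Of these risers, 5 entered the group only through the KANSL1-deficient libraries. They were A930002I21Rik, E430002N23Rik and AI506816 (apart), Gm34006 (antisense) and Gm43581 (same strand). Of all tested genes, 3.85% were called higher. The difference between these positions was not tested. The median log2 fold changes were 0.34, 0.06, 0.12 and 0.10 in the same order.

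The neighbouring protein-coding gene was tested in 93 pairs. Across pairs the log2 fold changes of lncRNA and neighbour had a Spearman rho of 0.49, with 0.62 in the 31 pairs that lay apart, 0.39 in 40 antisense pairs, 0.14 in 15 same-strand pairs and 0.57 in 7 divergent pairs. The 2 values of a pair come from the same 6 libraries, some lncRNAs share a neighbour, and overlapping genes may share reads, so these are descriptions. Over the 93 pairs, 65 neighbours (69.9%) had a positive log2 fold change and 5 (5.38%, beside 6.76% of all tested genes) passed the threshold. Above 0 were 7394 of the 15353 tested genes and 3595 of the 6399 protein-coding genes of at least 20 CPM. Among the 11 risers all neighbours were above 0, some barely (Srpk2 at 0.11) or hardly read (Aqp4, under 2 CPM in every library). Of these neighbours 3 (Nusap1, Syne3 and Slc16a1) passed, beside 3.85% of all tested genes called higher. Called neighbours were also found beside 2 lncRNAs that were not called. Gimap1, a GTPase gene of lymphocyte survival, rose from 171, 175 and 189 to 286, 337 and 292 CPM (0.77; adjusted p = 0.00566, edgeR), while Gimap1os on its opposite strand was at 70.4, 64.6 and 66.7 against 71.4, 91.7 and 80.7 CPM (0.27; adjusted p = 0.291, edgeR). Btbd9 fell by 0.55 on the log2 scale (adjusted p = 0.0333, edgeR), and Gm50240 opposite to it had -0.26 (adjusted p = 0.600, edgeR).

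**Figure D4:**
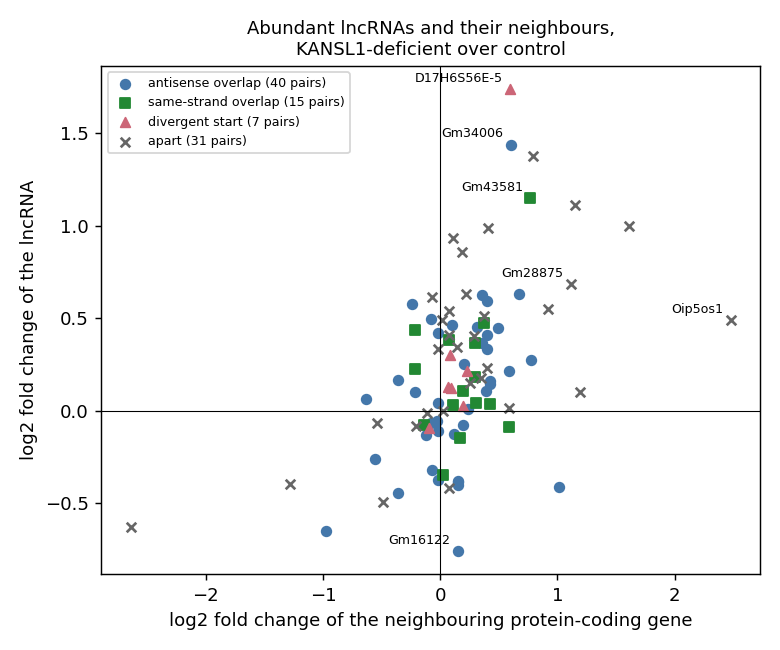
Each point is 1 of 93 pairs, with the log2 fold change of the neighbouring protein-coding gene on the horizontal axis and that of the lncRNA on the vertical axis; marker shapes give the position. The points rise from lower left to upper right (Spearman rho 0.49), with Oip5os1 beside Nusap1 at 2.48 farthest to the right and Gm16122 lowest at -0.76.

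Besides Gm4258 near Ptprc, 5 further abundant lncRNAs beside genes known from T cells were looked at, chosen after their values were seen. Their adjusted p lay above 0.05 with edgeR, and DESeq2 called 2 of them, Gm39323 and Gm37065. Gm16565 lies within Cd247, the zeta chain gene of the T cell receptor complex, and was at 141, 95.9 and 92.8 CPM in control and 87.0, 82.8 and 89.8 CPM in KANSL1-deficient libraries (-0.35; adjusted p = 0.253, edgeR), with Cd247 at 0.02. Gm44175 near Cd8a had a log2 fold change of 0.18 (adjusted p = 0.695, edgeR). Gm39323 near Thy1 was at 42.5, 24.3 and 39.0 against 57.4, 52.3 and 52.4 CPM, without overlap (0.62; adjusted p = 0.0927, edgeR). Gm20098 near Satb1, a chromatin organiser of thymocytes, had 0.54 (adjusted p = 0.144, edgeR), with Satb1 at 0.08. Gm37065, opposite to the surface receptor gene Slamf6, had 0.60 (adjusted p = 0.0941, edgeR), with Slamf6 at 0.40 (adjusted p = 0.0817, edgeR).

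Gm56626, within the peptide transporter gene Slc15a2, varied among the controls rather than between the groups. It was at 10.6 CPM in control replicate 1 and at 51.8 and 49.5 CPM in the other controls, and Slc15a2 was at 9.95, 72.8 and 90.9 CPM in the same libraries. The KANSL1-deficient libraries were at 28.1, 48.1 and 44.2 CPM for Gm56626, and its log2 fold change was 0.10 (95% interval -0.84 to 1.05).

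In the authors' deposited table, 23 of the 102 lncRNAs had an adjusted p under 0.05 (22.5%, beside 14.9% of the 13543 genes with one), 19 higher and 4 lower. These included all 12 named above as called. The authors' deposited table marks 5 of the 102 as significant, with log2 fold changes of 1.11 to 1.74. They were D17H6S56E-5, A930002I21Rik, Gm34006, E430002N23Rik and Gm43581. All of them but D17H6S56E-5 entered the group only through the KANSL1-deficient libraries. BC028471, at a log2 fold change of 0.998, was not marked. The share of all genes so marked was not worked out. DESeq2 run on the same counts also called 23 (22.5%, beside 14.2% of all genes with an adjusted p), 19 higher (18.6%, beside 7.56%) and 4 lower (3.92%, beside 6.67%). The members called by DESeq2 and not by edgeR were Gm39556, 2610035D17Rik, 2610307P16Rik, Chaserr, Gm56906, Dleu2, Gm39323 and Gm37065, which were higher, and Gm26740, Gm36445 and 4933407K13Rik, which were lower.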

How the data were processed

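RNA was measured in 6 libraries of polyadenylated RNA from sorted thymocytes, 3 per group, with groups taken from the sample titles. Per the submitters' processing notes, the tools were STAR, featureCounts and DESeq2 and the build GRCm39 (versions and strand setting not given in the sources used here). Deposited by the authors were a table of whole-number read counts per gene and a table of FPKM values. The authors' deposited comparison lists for each gene the mean normalized signal, the fold change (a linear ratio), its log2 value, the p-value and the adjusted p-value.

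The counts as deposited were tested in edgeR 4.0.16 (quasi-likelihood test, R 4.3.3), with TMM factors, edgeR's filter for low counts (minimum count 10, minimum total 15) and Benjamini-Hochberg adjustment at 0.05 over all 15353 tested genes; all 102 abundant lncRNAs passed the filter. CPM per library is TMM-scaled, except for the membership limit and the group means set against it, which use library totals. Alternatives used DESeq2 1.42.0, limma 3.58.1 (voom, and log2 of FPKM plus 1 or 0.1), other scalings, filters and limits, a replicate block, and the omission of 1 library at a time. On simulated counts for this comparison (15353 genes, changed genes of at least 20 CPM), 14 of 67 genes changed 1.5-fold were recovered. So were 59 of 67 at 2-fold and 66 of 66 at 4-fold, and 4 of 15153 unchanged genes were called. The simulated counts varied independently from gene to gene. They held no shift shared by many genes of 1 library, such as that of control replicate 1, so these figures do not cover it. The titles number the mice within a group and mention no pooling.

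Named lncRNAs were those past the threshold, the 10 with the highest mean, those of the listed families and microRNA hosts, the 3 largest changes that missed the threshold, and those at the limit. The neighbour was the gene overlapped on the opposite strand, otherwise the one with the nearest start. LncRNAs named beside T cell genes, Gm56626, those that share Mad1l1 and those called by DESeq2 alone were chosen after their values were seen. The members and lists were chosen with earlier results of these data known. MicroRNA and promoter sequences are RefSeq's in GRCm38.p6, and gene coordinates are the deposited GRCm39 ones. A RefSeq promoter was found for 47 of the 102, and the 2 on chromosome 18 were left out of that search. Some marker genes and related genes are not reported here.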

Additional observations from a re-analysis of the deposited data

How the results depend on the processing

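With 3 libraries a group, changes well under 2-fold are often missed, and the counts of calls moved with the test. Risers and fallers numbered 11 and 1 in the result above. They were 9 and 4 with library totals, 15 and 2 without the filter or with at least 5 CPM in 3 libraries, 19 and 4 with DESeq2, 12 and 1 with limma-voom, and 6 and 1 with log2 of FPKM plus 1 or plus 0.1. Of all tested genes 3.85% were higher and 2.91% lower in the main test. These shares were 2.39% and 6.23% with library totals, and 7.56% and 6.67% with DESeq2. They were not worked out for the other tests, so those counts cannot be set against all genes. The median log2 fold change, 0.14 above, was -0.014 with library totals and 0.00844 and 0.0132 with FPKM plus 1 and plus 0.1. The median of all tested genes moved down in these settings too. It was -0.02 in the main test, -0.17 with library totals, and -0.10 and -0.15 with FPKM plus 1 and plus 0.1. With members of at least 10 CPM (207) the risers and fallers were 18 and 2, and of at least 40 CPM (43) 5 and 0. Removing each library's trend with abundance gave 10 and 0, and requiring 20 CPM in both groups gave 6 and 0; both were chosen after seeing the data. Leaving out 1 library gave 6 to 10 risers, 0 to 2 fallers and medians of 0.10 to 0.22.

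Equal replicate numbers did not pair the libraries (correlations of deviations -0.05, -0.02 and -0.10), and no library correlated best with its own number. With the number as a replicate block 6 rose and 0 fell, so the block lowered the count of calls.

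For the 12 called lncRNAs, 141 of 192 alternative values kept the call, 51 kept the direction without it and 0 reversed. The calls of Gm28875, Dgkeos, Gm43581, Oip5os1 and AI506816 were lost with both FPKM settings. The replicate block lost the same calls and that of Gm16122. Over the 102, the sign of the log2 fold change turned for 17 with library totals, 13 with either FPKM setting, 7 with the trend removed and 8 to 18 with 1 library left out. Of the 30 named lncRNAs, 5 near 0 turned under some setting. Airn was at -0.049 with library totals and between -0.089 and 0.47 with 1 library left out. Norad was at -0.13 with library totals, -0.12 and -0.13 with FPKM, -0.14 with the abundance trend removed and -0.051 to 0.060 with 1 library left out. Nron was between -0.22 and 0.15 and Gm32004 between -0.26 and 0.19 with 1 library left out. Gm56638 was at 0.00205 with median-of-ratios scaling, 0.00177 with DESeq2, 0.019 with voom, 0.013 with the block, 0.094 with the trend removed and -0.13 to 0.11 with 1 library left out. The cause was not tested.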
